A study of Mus musculus with 2 samples.

Results

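Sstr2-negative peptidergic C neurons of the mouse trigeminal ganglion (TG) were 233 of the 1204 neurons in the data, which came from 11378 deposited cells, of which 10356 passed the filter. They were chosen by their counts. A cell was kept with at least 150 genes and at most 25% of its UMIs (unique molecular identifiers, each marking 1 captured RNA molecule) in mitochondrially encoded genes. A neuron had at least 5000 UMIs and at least 10 UMIs of Tubb3, Snap25 and Stmn2 together. A member had Calca of at least 5000 CPM (counts of a gene scaled to 1000000 UMIs of the cell or group), Nefh below 300 CPM, at most 2 Trpm8 UMIs, Mrgpra3 below 100 CPM and no Sstr2 UMI.

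The study profiled cells of the right TG from male C57BL/6 mice of 5 to 8 weeks with the BD Rhapsody whole transcriptome assay. The control group received saline and the experimental group received 20 µL of complete Freund's adjuvant (CFA, an oil emulsion with killed mycobacteria that causes lasting inflammation) in the right vibrissal pad, and the ganglia were taken 7 days later. The labels call the control mice untreated, whereas the methods describe saline. The methods name 6 mice per group, and 1 library was deposited per condition, with no label that ties a cell to a mouse. Hence there is no replicate, no difference was tested, and library and condition cannot be told apart.

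Primary sensory neurons of the TG carry touch, temperature, itch and pain from the face. Peptidergic C nociceptors are small neurons with unmyelinated axons that release calcitonin gene-related peptide (CGRP, from Calca) and substance P (from Tac1) in the skin, the meninges and the brainstem. They depend on nerve growth factor during development, and many carry the heat and capsaicin channel Trpv1 and the irritant channel Trpa1. Sstr2 encodes a receptor for somatostatin, an inhibitory peptide, and marks a part of these neurons.

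The control library held 155 members among 795 neurons, a share of 19.5% (exact Clopper-Pearson 95% interval 16.8% to 22.4%). The CFA library held 78 among 409, a share of 19.1% (15.4% to 23.2%), so the share differed by less than its counting error. Members had a median of 37481 UMIs and 7184 genes per cell in the control library and of 31564.5 UMIs and 6692.5 genes in the CFA library. Together they held 5993836 UMIs (control) and 2714622 UMIs (CFA) of library totals of 48916096 and 22096268. The comparison groups were 407 (control) and 201 (CFA) non-peptidergic neurons, defined by Calca below 5000 CPM, with median depths of 54430 and 45849 UMIs. The most similar group was 169 and 97 Sstr2-positive peptidergic C neurons, chosen by the same rule with at least 1 Sstr2 UMI, with median depths of 35103 and 31547 UMIs. A further 44 and 25 neurons had Calca of at least 5000 CPM and Nefh of at least 300 CPM, and are called Nefh-positive peptidergic neurons here. A doublet score above 0.25 was found in 1 control member and in 0 CFA members. The libraries shared 27 cell index numbers, none of which belonged to a member.

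The limits of the rule fell within continuous distributions. Calca in members ran from 5432 over a median of 12389 to 21574 CPM (control) and from 5045 over 10539 to 22368 CPM (CFA). The neurons closest below the limit had 4821 and 4883 CPM, with 6 and 5 neurons between 4000 and 5000 CPM and 5 and 5 members between 5000 and 6000 CPM. Nefh, a neurofilament of large myelinated neurons, reached 293 and 295 CPM in members, and the lowest neurons above its limit had 302 and 309 CPM. At least 1 Trpm8 UMI was found in 11 and 3 members, and an Mrgpra3 UMI in 9 and 0. There were 22 and 18 members between 200 and 300 CPM of Nefh, and 19 and 11 peptidergic neurons between 300 and 400 CPM.

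A count of 0 Sstr2 UMIs depends on depth. Of the peptidergic C neurons with 5000 to 20000 UMIs, 29.4% (control) and 30.8% (CFA) had an Sstr2 UMI, against 57.0% and 64.5% of those with 20000 to 50000 UMIs and 47.8% and 36.0% of those with more. When the Sstr2-positive neurons were thinned to 5000 UMIs each, 40.8% and 59.8% of them kept an Sstr2 UMI. In non-peptidergic neurons, 4.18% and 2.99% had one at full depth. Thus members include an unknown number of neurons whose Sstr2 RNA was not sampled, and members were 47.8% (42.3% to 53.4%) and 44.6% (37.1% to 52.3%) of the peptidergic C neurons.

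The marker genes given for these cells were higher in members than in non-peptidergic neurons in summed level, although the median member was at 0 for Prokr2 and Nos1 in both libraries and for Htr3a in the control library. Tac1, Trpv1, Trpa1 and Nos1 were at similar summed levels in members and in Sstr2-positive neurons, whereas Prokr2 and Htr3a were higher in members in both libraries. The median Trpa1 level per cell was nevertheless higher in members than in Sstr2-positive neurons. Since Sstr2 and Calca chose the cells, and genes that vary with them follow that choice, these values describe the group and test nothing.

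**Figure D1:**
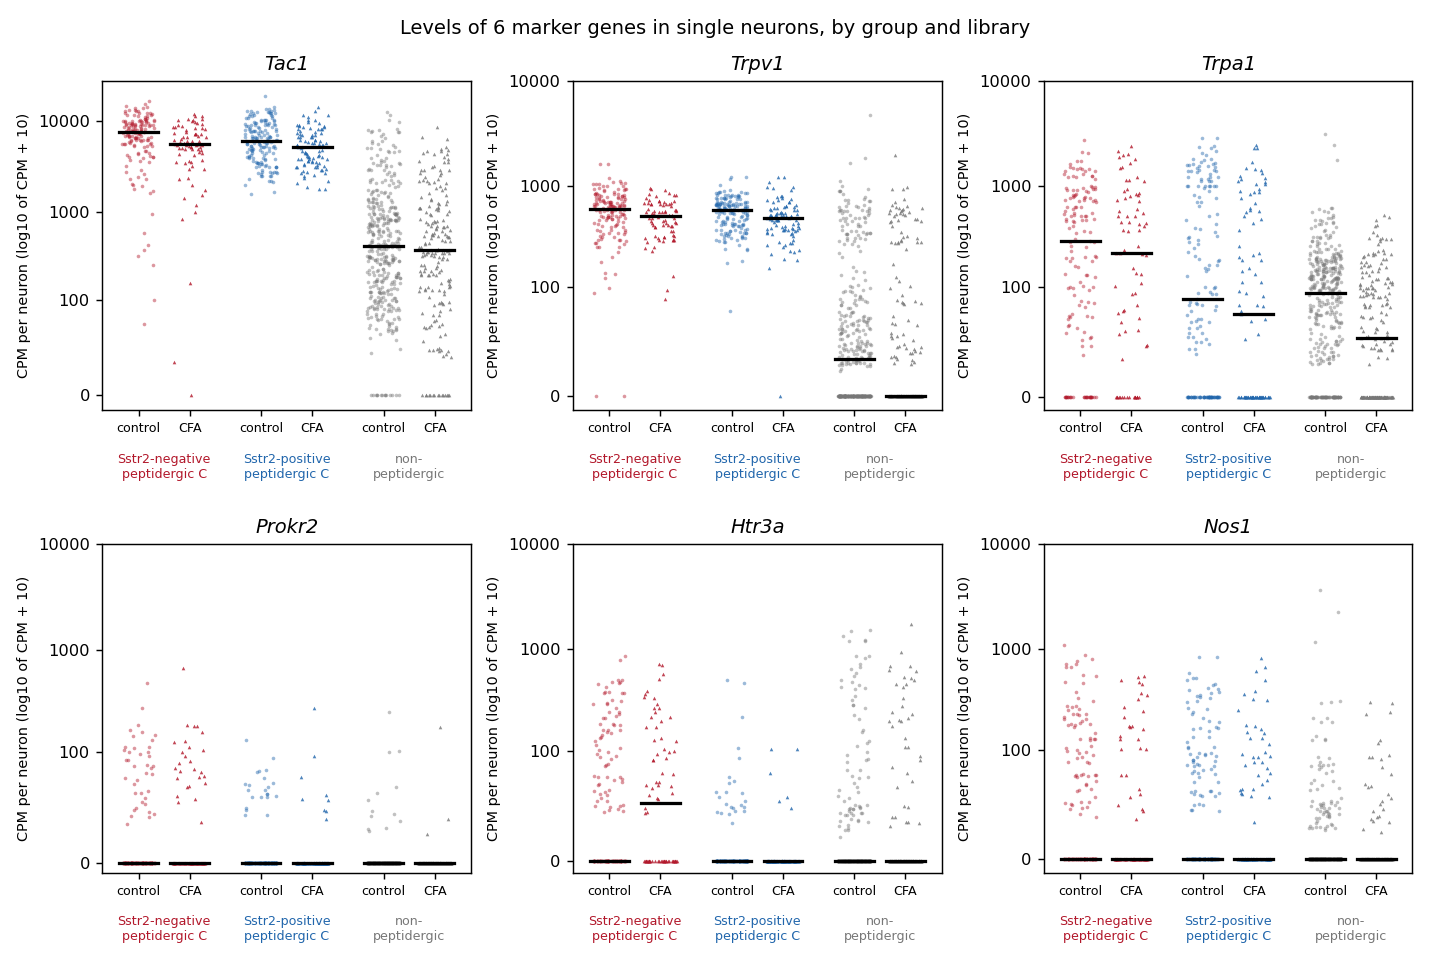
Each point is 1 neuron, with the CPM of a marker gene on the y axis (log10 of CPM + 10) and the groups of neurons in each library on the x axis. Tac1, Trpv1 and Trpa1 overlap widely between Sstr2-negative and Sstr2-positive peptidergic C neurons, although some Sstr2-negative neurons lie below the lowest Tac1 value of the Sstr2-positive ones (1596 CPM in the control and 1815 CPM in the CFA library), and Htr3a and Prokr2 reach high levels in more of the Sstr2-negative neurons.

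Tac1 (chr6:7555061-7562978, GRCm38), the gene of substance P, was summed over members at 7240 CPM (control) and 5705 CPM (CFA). Single members ran from 49.6 over a median of 7699 to 16889 CPM (control) and from 0 over 5599 to 12146 CPM (CFA), so nearly every member carried it. The lowest Sstr2-positive neurons had 1596 and 1815 CPM, and members thus had a tail of low Tac1 that those neurons lacked. Sstr2-positive neurons had 6996 and 5844 CPM, and non-peptidergic neurons 835 and 749 CPM, giving log2 ratios of members to non-peptidergic neurons of 3.12 and 2.93.

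Trpv1 (chr11:73234149-73261322), the capsaicin and heat channel, was at 613 and 517 CPM in members, 581 and 516 CPM in Sstr2-positive neurons and 75.5 and 89.6 CPM in non-peptidergic neurons. Its per-cell values had medians of 597 and 502 CPM with highest values of 1620 and 946 CPM. Trpa1 (chr1:14872644-14918862), which responds to mustard oil and other irritants, was at 535 and 474 CPM in members and 122 and 94.2 CPM in non-peptidergic neurons. Its values were spread widely over cells, from 0 over 289 to 2729 CPM (control) and from 0 over 220 to 2417 CPM (CFA). The log2 ratio of the summed level in members to that in Sstr2-positive neurons was -0.23 (control) and 0.17 (CFA). The median Sstr2-positive neuron was lower than the median member, at 74.8 and 51.5 CPM. At least 1 Trpa1 UMI was found in 81.3% and 78.2% of members and in 66.9% and 54.6% of Sstr2-positive neurons. A level of at least 500 CPM of Trpa1 was found in 41.3% and 35.9% of members.

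Prokr2 (chr2:132369705-132385502) encodes a G protein-coupled receptor for prokineticins, peptides that sensitize nociceptors. It was at 22.5 CPM (exact Poisson 95% interval 18.9 to 26.7) in control members and 46.0 CPM (38.3 to 54.9) in CFA members. Sstr2-positive neurons had 6.08 and 8.57 CPM, and non-peptidergic neurons 1.86 and 0.743 CPM. At least 1 UMI was found in 25.8% and 34.6% of members, 13% and 9.28% of Sstr2-positive neurons and 3.19% and 1.49% of non-peptidergic neurons. With every cell thinned to 5000 UMIs, these shares were 6.45% and 10.3%, 1.18% and 2.06%, and 0.246% and 0.497%, in the same order. The highest member had 477 CPM (control) and 667 CPM (CFA), while the median member was at 0. The log2 ratio of members to Sstr2-positive neurons was 1.89 and 2.43, and with Calca of at least 10000 CPM it was 1.64 and 0.16, so that Prokr2 was no longer past 2-fold in the CFA library.

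Htr3a (chr9:48899213-48911152), a subunit of the serotonin-gated cation channel, was at 110 and 131 CPM in members against 15.8 and 4.90 CPM in Sstr2-positive neurons and 41.4 and 38.7 CPM in non-peptidergic neurons. At least 1 UMI was found in 48.4% and 53.8% of members, 14.2% and 6.19% of Sstr2-positive neurons and 18.9% and 18.9% of non-peptidergic neurons. After thinning, the shares were 24.5% and 28.2%, 4.73% and 1.03%, and 8.60% and 9.95%. The log2 ratio to non-peptidergic neurons was 1.41 and 1.76, and 0.84 and 0.81, under 2-fold, with every cell weighted equally. Htr3a was higher still in Nefh-positive peptidergic neurons, at 278 and 290 CPM, so a high level was not particular to the members.

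Nos1 (chr5:117866839-117958840), the neuronal nitric oxide synthase, was at 128 and 87.7 CPM in members, 108 and 80.5 CPM in Sstr2-positive neurons, 14.5 and 8.39 CPM in non-peptidergic neurons and 49.5 and 73.1 CPM in Nefh-positive peptidergic neurons. At least 1 UMI was found in 49.7% and 38.5% of members and in 18.4% and 13.9% of non-peptidergic neurons, and after thinning in 27.1% and 21.8% against 4.67% and 3.98%. Nos1 was thus higher in peptidergic C neurons of both kinds than in non-peptidergic neurons. With Sstr2 read after thinning to 5000 UMIs, the log2 ratio of members to Sstr2-positive neurons was 0.08 (control) and 1.88 (CFA) for Nos1 and 0.10 and 1.14 for Trpa1, so these levels were not similar in the CFA library under that reading.

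Htr3a, Prokr2 and Nos1 were found together in a minority of members. In the control library, 75 of 155 members had an Htr3a UMI, 40 a Prokr2 UMI and 77 a Nos1 UMI. Of these, 29 had Htr3a with Prokr2, 45 Htr3a with Nos1, 22 Prokr2 with Nos1, 15 had all of them and 44 had none. In the CFA library, 42 of 78 members had Htr3a, 27 had Prokr2 and 30 had Nos1, with 22 for Htr3a with Prokr2, 7 for all and 17 for none. A cell without a UMI of these genes may still hold their RNA, as these are counts at full depth.

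Grouping the peptidergic C neurons by the number of Sstr2 UMIs showed how the genes moved between the extremes. Dcdc2a (chr13:25055273-25210706), which encodes a doublecortin domain protein that binds microtubules, was at 3.17 CPM in the 155 control neurons with no Sstr2 UMI, 16.8 CPM in the 44 with 1 UMI, 68.9 CPM in the 31 with 2 and 90.8 CPM in the 94 with 3 or more. In the CFA library it was at 2.58, 26.2, 65.6 and 139 CPM in 78, 26, 9 and 62 neurons. The neurons with 1 Sstr2 UMI thus lay between members and neurons with more Sstr2 UMIs. Pde1a (chr2:79834453-80196522), a phosphodiesterase stimulated by calcium and calmodulin, was at 1.5, 13.3, 29.3 and 68.0 CPM (control) and 1.84, 9.10, 8.21 and 60.7 CPM (CFA). Car8, a carbonic anhydrase-related protein without enzyme activity, ran from 55.2 over 105 and 164 to 208 CPM in the control library. Htr3a ran the other way, at 110, 46.3, 6.03 and 4.61 CPM (control), and at 131 and 14.8 CPM in CFA neurons with 0 and 1 Sstr2 UMI. Tac1 was at 7240, 7981, 7061 and 6514 CPM in the control library, a range of far less than 2-fold.

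**Figure D2:**
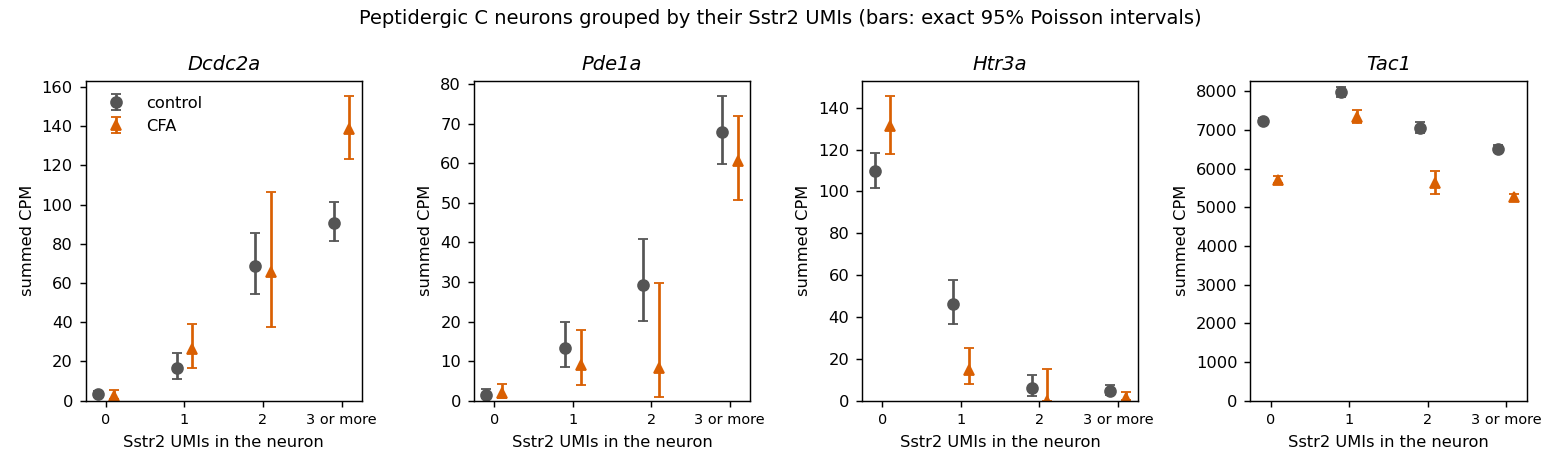
The x axis gives the Sstr2 UMIs in the neuron and the y axis the summed CPM of a gene in peptidergic C neurons of each library, with exact 95% Poisson intervals that cover counting error only. Dcdc2a and Pde1a are lowest at 0 Sstr2 UMIs and Htr3a is highest there.

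The description across genes began with non-peptidergic neurons. A gene was compared with at least 100 UMIs in the groups compared and was counted as different when its summed CPM was past 2-fold the same way in both libraries. Of 9647 genes, 408 (4.23%) were higher in members and 587 (6.08%) were lower. The genes farthest above included the peptide genes Gal and Adcyap1, the nicotinic receptor subunits Chrnb4 and Chrna3 and the receptor Kit, and the genes farthest below included Mlc1, Pou4f2, Barx2, Tmem45b, Cdh9 and Nts. Calca itself was part of the rule and is not counted as a result.

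Among the genes higher than in non-peptidergic neurons were both members of a pair of neighbours on chromosome 9. Chrnb4 (chr9:55028154-55048953), a beta subunit of nicotinic acetylcholine receptors, was at 46.5 and 36.5 CPM in members against 1.55 and 0.956 CPM, with log2 ratios of 4.91 and 5.25. Chrna3 (chr9:55010117-55026562), an alpha subunit that assembles with it, was at 38.9 and 33.9 CPM against 2.52 and 1.59 CPM. Sstr2-positive neurons had 49.9 and 17.5 CPM of Chrnb4 and 54.3 and 13.2 CPM of Chrna3. In members, a Chrnb4 UMI was found in 28.4% and 24.4% of cells at full depth and in 10.97% and 12.8% after thinning to 5000 UMIs, so a member without one may still hold its RNA. The highest member reached 454 and 286 CPM, and 44.4% and 63.6% of the members' Chrnb4 UMIs lay in 5 cells. With every cell weighted equally, the log2 ratios were 3.96 and 4.07 for Chrnb4 and 3.17 and 2.80 for Chrna3.

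Gal, Adcyap1, Ccl2 and Kit belonged to the same set. Adcyap1, the gene of the vasodilator peptide PACAP, was at 1712 and 1710 CPM in members against 99.9 and 97.7 CPM. Gal, the gene of galanin, was at 322 and 344 CPM against 16.0 and 16.7 CPM. Gal was lower in members than in Sstr2-positive neurons (669 and 497 CPM), without passing 2-fold in the CFA library. Ccl2, a chemokine that draws monocytes, was at 181 and 170 CPM against 11.8 and 9.88 CPM. Kit, the receptor of stem cell factor, was at 151 and 204 CPM against 5.62 and 11.4 CPM. As with Gal, Adcyap1 and Kit were lower in members than in Sstr2-positive neurons by the median cell. These medians were 1630 and 1702 against 2214 and 2279 CPM for Adcyap1. They were 133 and 164 against 221 and 272 CPM for Kit.

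Enzymes and other genes completed the set with the largest ratios. Ptk2b, a tyrosine kinase activated by calcium, was at 40.4 and 34.6 CPM against 1.06 and 1.27 CPM, with log2 ratios of 5.25 and 4.76. Aldh1a3, an enzyme that makes retinoic acid, was at 204 and 115 CPM against 10.6 and 5.31 CPM. Gpx3, a secreted glutathione peroxidase, was at 483 and 448 CPM against 22.6 and 27.7 CPM. The remaining genes of this set had log2 ratios of 4.14 to 4.62 in the libraries, and were Cyp1b1, a cytochrome P450 (102 and 136 CPM), Cdhr1, a cadherin-related protein (77.6 and 80.3 CPM), and Fxyd5, a regulator of the sodium pump (22.9 and 39.8 CPM).

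The genes lowest against non-peptidergic neurons were at or near 0 in members. Mlc1, a membrane protein, was at 0.500 CPM in control members against 78.1 CPM, and at 0 in CFA members against 40.3 CPM, at least 36.4-fold lower when members are set at a floor of 3 UMIs per library. Pou4f2, a POU-domain transcription factor, was at 0.167 CPM against 25.6 CPM and at 0 against 39.9 CPM (at least 36.1-fold lower). Barx2, a homeobox factor, was at 0.167 CPM against 19.8 CPM and at 0 against 23.5 CPM (at least 21.2-fold lower). Tmem45b, which encodes a transmembrane protein, was at 3.34 and 1.47 CPM against 370 and 326 CPM, with log2 ratios of -6.79 and -7.79. Cdh9, a cadherin, had 1 UMI in the members of each library, against 30.1 and 32.7 CPM in non-peptidergic neurons. Nts, the gene of neurotensin, likewise had 1 UMI in each, against 22.6 and 40.3 CPM.

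The itch peptides were nearly absent from members. Nppb, the gene of the natriuretic peptide of itch neurons, had 0 UMIs in control members and 2 in CFA members, against 33.0 and 62.4 CPM in non-peptidergic neurons, at least 66.0-fold lower in the control library by the floor of 3 UMIs. Sst, the gene of somatostatin, had 12 and 0 UMIs in members, against 61.5 and 104 CPM, at least 94.4-fold lower in the CFA library. Mrgprd, the receptor that marks nonpeptidergic nociceptors, was at 6.51 and 5.53 CPM in members against 265 and 204 CPM, and 79.5% of its control member UMIs lay in 5 cells. Th, which marks low-threshold C fibres, was at 10.7 and 9.58 CPM against 52.1 and 94.4 CPM.

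**Figure D3:**
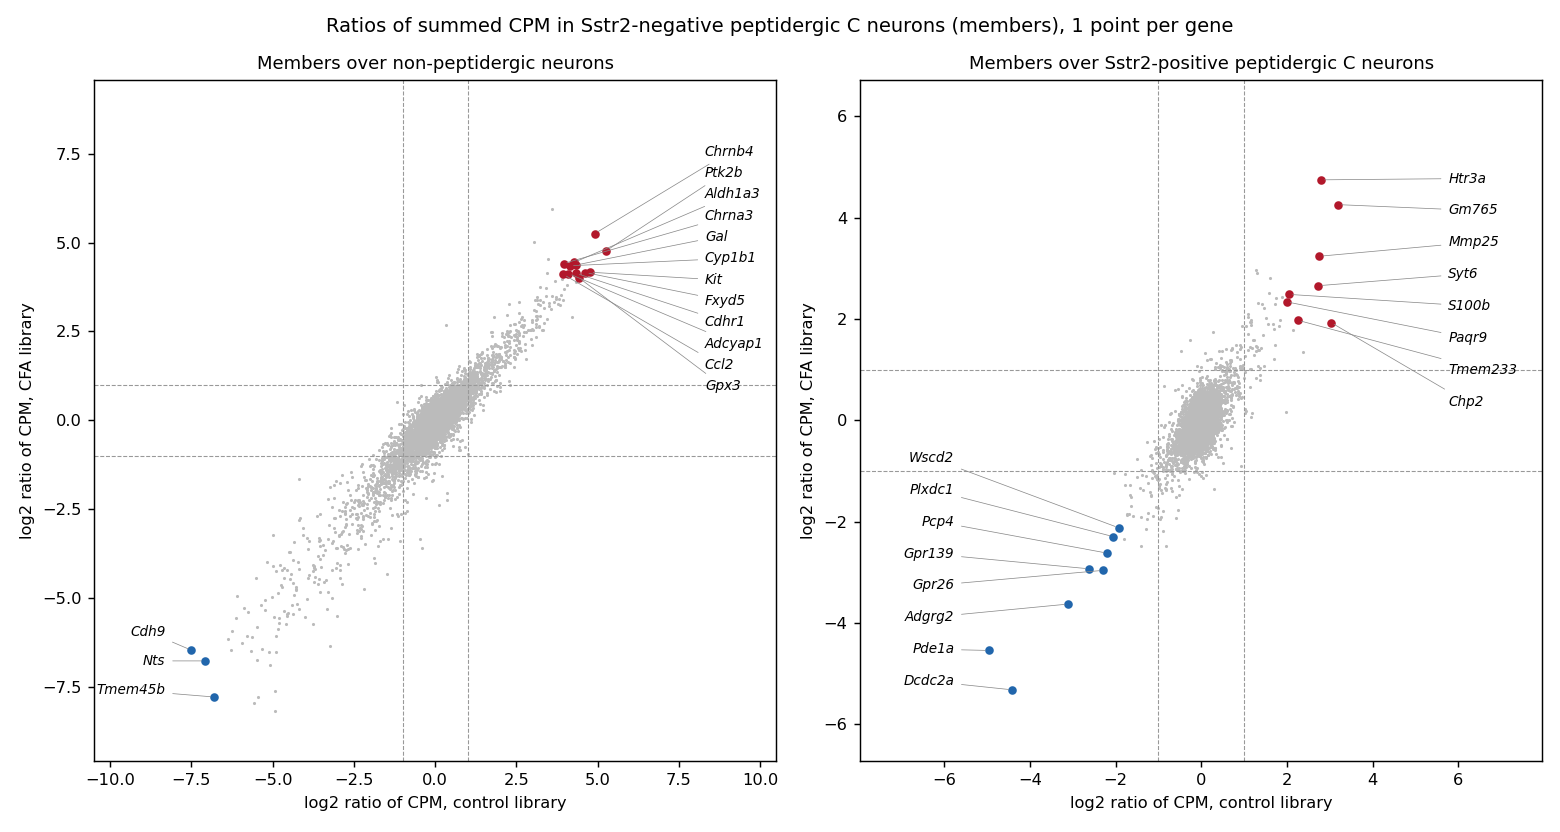
Each point is 1 gene, with the log2 ratio of summed CPM in the control library on the x axis and in the CFA library on the y axis, for members over non-peptidergic neurons and over Sstr2-positive peptidergic C neurons. Of 9647 and 7579 genes compared, 9615 and 7579 are drawn, as 32 and 0 were at 0 in a group, and the labelled genes lie past 2-fold the same way in both libraries.

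The counts by gene groups are to be read against the 4.23% higher and 6.08% lower of all genes compared. At these shares, a list of 6 to 12 genes with 1 gene past 2-fold in a direction is near the background. Neuropeptide and peptide processing genes had 5 of 19 compared members above non-peptidergic neurons (Tac1, Adcyap1, Gal, Cartpt and Scg2) and 4 below (Sst, Nppb, Cpe and Scg3). Their median log2 ratios were 0.52 (control) and 0.48 (CFA), against -0.04 and -0.03 over all genes compared. Scg2, a granin of dense-core vesicles, was at 1884 and 2229 CPM in members against 270 and 401 CPM. Cartpt, the gene of the CART peptides, was at 507 and 560 CPM against 45.6 and 24.3 CPM. Cpe, the carboxypeptidase that trims peptide precursors, was lower in members (378 and 315 CPM against 1055 and 871 CPM), and so was the granin Scg3 (395 and 463 CPM against 1670 and 1673 CPM). Calcb, which encodes the second CGRP, was at 470 and 423 CPM against 435 and 302 CPM and was not past 2-fold.

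Cartpt and Scg2 were higher in members than in non-peptidergic neurons and varied together among members, and the promoters of both hold the palindrome TGACGTCA, the full cAMP response element. The 250 bases before the gene start are shown for both, 5′ to 3′ on the strand of the gene with the palindrome in capitals, from RefSeq on GRCm38.p6. The Cartpt window is chr13:99900684-99900933 on the minus strand and lies within the annotated span of the gene, whose longest model begins further upstream. The Scg2 window is chr1:79440027-79440276 on the minus strand, next to the annotated start.
Cartpt: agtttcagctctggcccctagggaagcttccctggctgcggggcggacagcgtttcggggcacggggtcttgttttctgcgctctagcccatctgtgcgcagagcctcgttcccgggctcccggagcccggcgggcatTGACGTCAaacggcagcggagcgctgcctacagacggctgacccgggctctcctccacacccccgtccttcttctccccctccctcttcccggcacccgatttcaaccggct
Scg2: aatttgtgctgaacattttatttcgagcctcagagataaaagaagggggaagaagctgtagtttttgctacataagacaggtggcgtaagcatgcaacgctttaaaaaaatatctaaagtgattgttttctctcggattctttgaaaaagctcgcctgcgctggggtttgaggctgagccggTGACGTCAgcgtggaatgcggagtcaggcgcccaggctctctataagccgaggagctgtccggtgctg

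The first base of the palindrome lay 112 bases before the start of Cartpt and 68 bases before that of Scg2. A promoter window of 300 bases was found for 21 of the 25 peptide genes, and 5 of these held the palindrome: Cartpt, Sst, Pcsk1, Scg2 and Chgb. Counted by promoters, since a gene can have several, it was held by 5 of the 30 windows of these genes and by 588 of 32851 promoters in all (1.79%). Being a palindrome it reads the same on both strands, and a match describes the letters only. Sst, which holds it, was nearly absent from members, and the windows of Tac1 and Adcyap1 do not hold these letters.

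Among TRP channels, 3 of 9 were higher than in non-peptidergic neurons (Trpv1, Trpa1 and Trpm3), and others were lower. Trpm3, a heat and steroid channel, was at 106 and 130 CPM against 48.5 and 51.2 CPM. Trpc6, a channel opened by diacylglycerol, was lower, at 1.67 and 0 CPM against 36.7 and 33.3 CPM. Of 6 acid-sensing and purinergic channels, Asic3 was higher (140 and 117 CPM against 18.4 and 20.1 CPM) and the ATP receptor P2rx3 lower (12.8 and 10.3 CPM against 50.9 and 37.7 CPM).

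Sodium channel genes were on the low side. None of 12 was higher past 2-fold, 4 were lower (Scn1a, Scn7a, Scn8a and Scn4b), and the median log2 ratios were -0.71 and -0.68. Scn8a, a channel of fast-firing axons, was at 14.2 and 16.9 CPM against 51.4 and 66.7 CPM. Among the channels known from nociceptors, Scn10a was at 195 and 176 CPM against 422 and 306 CPM, Scn11a at 284 and 280 CPM against 639 and 501 CPM, and Scn9a at 340 and 362 CPM against 434 and 468 CPM. Of these, Scn9a was the closest to the other neurons. None of these passed 2-fold in both libraries.

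Potassium and HCN channels had 2 of 25 higher and 11 lower, with median log2 ratios of -0.61 and -0.95. The higher genes encode 2-pore potassium channels that hold the resting potential, Kcnk3 (75.2 and 137 CPM against 8.80 and 20.9 CPM) and Kcnk2 (85.3 and 116 CPM against 37.0 and 47.4 CPM). Among the lower ones were Kcna1, a voltage-gated channel of axons (7.67 and 3.32 CPM against 25.1 and 34.9 CPM), and Kcnt1, which sodium activates (51.7 and 37.9 CPM against 135 and 96.1 CPM). Of 12 calcium channel genes, Cacna2d2, an auxiliary subunit of the family that gabapentin binds, was higher (153 and 105 CPM against 46.7 and 45.3 CPM). The T-type channels Cacna1h and Cacna1i were lower.

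Of 16 growth factor and cytokine receptor genes, 4 were higher and 5 lower. The higher ones included Ngfr, which binds neurotrophins (640 and 878 CPM against 137 and 155 CPM), Gfra3, the artemin co-receptor (629 and 505 CPM against 57.9 and 69.9 CPM), and Kit. The lower genes were Ntrk2, Ntrk3, Gfra1, Gfra2 and Il31ra. Gfra2, the neurturin co-receptor, was at 9.68 and 4.79 CPM against 385 and 419 CPM, with log2 ratios of -5.31 and -6.45. Ret, the signalling receptor that the co-receptors share, was at 503 and 446 CPM against 658 and 594 CPM.

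The list of serotonin, prostanoid, kinin and other receptors, most of them coupled to G proteins, held more higher genes than any other receptor or channel list. Of 25 compared, 10 were higher and 5 lower, with median log2 ratios of 0.70 and 0.81. Ptgir, the prostacyclin receptor, was at 113 and 128 CPM against 8.67 and 12.1 CPM. The prostaglandin E2 receptors Ptger1 (119 and 82.1 CPM against 21.6 and 24.5 CPM) and Ptger4 (26 and 32 CPM against 10.7 and 10.8 CPM) were higher, while Ptger3 was lower (2.00 and 0.737 CPM against 15.1 and 13.6 CPM). Lpar1, a receptor of lysophosphatidic acid, was at 191 and 196 CPM against 15.1 and 19.6 CPM, whereas its relative Lpar3 was at 40.9 and 34.3 CPM against 276 and 234 CPM. S1pr3, a sphingosine 1-phosphate receptor, was at 163 and 199 CPM against 15.5 and 15.0 CPM. Htr1b, a serotonin receptor and a target of triptans, was at 45.7 and 42.0 CPM against 7.25 and 6.58 CPM.

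Of 24 sensory neuron transcription factors, Pou4f3, Rxrg, Zeb2 and Klf6 were higher and 7 were lower. Zeb2 was at 118 and 113 CPM against 13.5 and 15.8 CPM, and Rxrg, a retinoid receptor, at 94.9 and 77.0 CPM against 11.9 and 13.1 CPM. Runx1, a factor of nonpeptidergic nociceptors, was at 92.8 and 128 CPM against 180 and 293 CPM and was not past 2-fold in the control library. Of 15 nitric oxide and second messenger genes, Nos1, Prkg2, Camk2b and Camk2g were higher and Pde1c, Prkca and Rasgrp1 lower. The median log2 ratios of this list were 0.06 and 0.13. Prkg2 encodes a protein kinase activated by cyclic GMP, the messenger made in response to nitric oxide, and was at 52.1 and 79.9 CPM against 21.9 and 31.5 CPM.

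Inflammatory genes were higher in members in both libraries, the control included. Of 6 compared, 5 were higher (Il6, Ccl2, Serpina3n, Nfkbia and Nfkbiz), with median log2 ratios of 1.98 and 2.21. Il6, the gene of interleukin 6, was at 40.5 and 28.7 CPM against 2.96 and 2.97 CPM. Of 8 nerve injury genes, Gap43, a growth cone protein (1684 and 1905 CPM against 300.2 and 327 CPM), and Csf1 were higher, and Atf3, an injury-induced factor, was at 210 and 214 CPM against 159 and 156 CPM. Of 16 interferon response genes, 5 were higher and none lower, and of 10 immediate early genes, Btg2 alone was higher (128 and 165 CPM against 28.0 and 34.9 CPM). None of 83 respiratory chain genes, 15 mitochondrially encoded genes or 14 heat shock chaperones passed 2-fold, and 1 of 76 ribosomal protein genes did.

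Against Sstr2-positive peptidergic C neurons, few genes differed. Of 7579 genes, 55 (0.726%) were higher in members and 45 (0.594%) were lower. Of the genes named as higher in members, some were higher still in non-peptidergic neurons, and others were highest in Nefh-positive peptidergic neurons. The genes lowest in members included Pde1a, Dcdc2a and several G protein-coupled receptors. Since Sstr2 divides the groups, genes that go with Sstr2 had to differ, and no test was made.

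The first kind was led by Gm765, a predicted gene, at 52.9 and 40.9 CPM in members and 5.78 and 2.14 CPM in Sstr2-positive neurons, with 365 and 328 CPM in non-peptidergic neurons. Its UMIs were concentrated, with 62.8% (control) and 90.1% (CFA) of them in 5 members, and 23.9% and 14.1% of members had any. Mmp25, a membrane-anchored metalloproteinase, was at 49.4 and 34.6 CPM against 7.30 and 3.67 CPM, with 178 and 204 CPM in non-peptidergic neurons. Syt6, a synaptotagmin named for its ratio to Sstr2-positive neurons, was at 30.4 and 32.8 CPM against 4.56 and 5.20 CPM. With Calca of at least 10000 CPM, the log2 ratio of Mmp25 to Sstr2-positive neurons went from 2.76 and 3.24 to 1.47 and 1.86. That of Syt6 went from 2.74 and 2.66 to 2.42 and 1.52. Tmem233, a transmembrane protein, was at 324 and 312 CPM against 67.8 and 79.6 CPM, with 1533 and 1593 CPM in non-peptidergic neurons. Tmem233 reached 2460 and 2370 CPM in single members, while the median member was at 93.2 and 0 CPM.

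The second kind included S100b, a calcium-binding protein also found in glia and large neurons, at 152 and 135 CPM in members against 36.6 and 24.2 CPM in Sstr2-positive neurons and 349 and 706 CPM in Nefh-positive peptidergic neurons. Further genes are given by the comparison with Sstr2-positive neurons alone, whatever their level in other groups. Paqr9, a membrane receptor-like protein, was at 97.8 and 88.0 CPM against 24.5 and 17.5 CPM, and Chp2, which binds calcium and resembles calcineurin B, at 37.2 and 79.2 CPM against 4.56 and 20.8 CPM. Of the Chp2 UMIs, 51.6% and 54.0% in members and 53.3% and 89.7% in Sstr2-positive neurons lay in 5 cells. Thy1, a surface glycoprotein of neurons, was at 291 and 343 CPM against 88.2 and 70.4 CPM. The acid-sensing channel Asic1 (89.9 and 86.2 CPM against 40.1 and 23.6 CPM) and the sodium channel subunit Scn2b (151 and 156 CPM against 67.2 and 40.7 CPM) passed 2-fold as well. With Calca of at least 10000 CPM required, the log2 ratio of Chp2 went from 3.03 and 1.93 to 2.83 and 0.61, that of Tmem233 from 2.26 and 1.97 to 1.47 and 0.54, and that of Gm765 from 3.19 and 4.25 to 1.17 and 2.03.

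The genes lower in members were led by Pde1a (1.5 and 1.84 CPM against 46.8 and 42.9 CPM, log2 ratios -4.96 and -4.54) and Dcdc2a (3.17 and 2.58 CPM against 67.5 and 103 CPM, -4.41 and -5.32). A UMI of Dcdc2a was found in 5.81% and 8.97% of members and in 54.4% and 62.9% of Sstr2-positive neurons. Several receptors were lower in the same way: the adhesion receptor Adgrg2 (3.00 and 2.58 CPM against 25.8 and 31.8 CPM) and the orphan receptors Gpr139 (4.34 and 4.42 CPM against 26.8 and 33.7 CPM) and Gpr26 (11.7 and 9.95 CPM against 57.0 and 77.5 CPM). Npy1r, a receptor of neuropeptide Y, was at 90.9 and 89.5 CPM against 190 and 291 CPM. With Sstr2 read after thinning to 5000 UMIs, which moves neurons with few Sstr2 UMIs into the members, the log2 ratios were -1.95 and -2.69 for Pde1a, -2.09 and -2.80 for Dcdc2a, -1.48 and -2.57 for Adgrg2, -1.62 and -1.78 for Gpr139 and -1.19 and -2.0 for Gpr26, smaller but still past 2-fold. The others named by their ratios were Pcp4, a calmodulin-binding protein (log2 ratios -2.20 and -2.62), Plxdc1 (-2.05 and -2.30) and Wscd2 (-1.93 and -2.12), and with Sstr2 read after thinning these were -1.35 and -2.25, -1.14 and -1.43, and -1.04 and -1.87.

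By gene groups, the receptor list held the most genes past 2-fold. Of its 19 genes, Prokr2, Htr3a and Lpar3 were higher and Npy1r was lower, a larger share than the 0.726% higher and 0.594% lower of all genes compared. No neuropeptide gene of 17 and no TRP channel of 6 passed 2-fold in both libraries, which at those shares would be so for most lists of this size, and their median log2 ratios lay between 0.04 and 0.12. Of 17 potassium and HCN channels, Kcnh2 was lower and none was higher, and the median log2 ratios were -0.43 and -0.27, against -0.01 and -0.02 over all genes. No calcium channel of 10 passed 2-fold, with medians of -0.21 and -0.24. Of 14 nitric oxide and second messenger genes, Pde1c, a phosphodiesterase stimulated by calmodulin, was higher, with medians of 0.31 and 0.18. Of the interferon, inflammatory, nerve injury and immediate early genes, none passed 2-fold.

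Members differed among themselves. Every cell was thinned to 5000 UMIs, and the variance of a gene over members was divided by its mean, a ratio near 1 where cells differ by counting alone. The median ratio over 4178 genes was 1.08 in control members and 1.05 in CFA members. The ratio was 9.26 and 8.69 for Tac1, 7.18 and 8.68 for Cartpt, 6.01 and 6.22 for S100a6, a calcium-binding protein, and 5.81 and 5.17 for Scg2. It was 5.56 and 4.78 for Ifit1, an interferon response gene, 4.01 and 5.54 for Tmem233, 3.96 and 4.51 for Trpa1 and 4.28 and 3.56 for Thy1. For the same relative spread, this ratio is larger in genes with more UMIs, so its order is not an order of relative spread. The thinned means were 37.1 and 28.8 UMIs for Tac1 and 2.47 and 2.49 UMIs for Trpa1. The set also held Lig1, a DNA ligase, the extracellular matrix gene Dcn, the mitochondrial ribosomal RNA mt-Rnr2 (7.08 and 3.61) and CT010467.1 (9.30 and 4.73).

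Cartpt ran from 0 over a median of 254 to 4727 CPM in control members and from 0 over 251 to 5034 CPM in CFA members, and at least 500 CPM were found in 31.6% and 42.3% of them. Scg2 ran from 213 over 1398 to 5771 CPM and from 237 over 1900 to 5017 CPM, so that no member lacked it. Both genes thus ranged over more than an order of magnitude within a group chosen for high Calca.

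Among these variable genes, Tac1, S100a6 and Trpa1 went together, and so did Cartpt, Scg2 and Thy1. Tac1 varied with S100a6 (Spearman's rho 0.62 over 155 control members and 0.51 over 78 CFA members) and with Trpa1 (0.50 and 0.58), and Trpa1 with S100a6 (0.38 and 0.51). Cartpt varied with Scg2 (0.44 and 0.36) and Thy1 (0.41 and 0.44). Trpa1 and Scg2, of different sets, had rho of -0.44 and -0.40, and Tac1 and Htr3a of -0.43 and -0.26. Cartpt and Tmem233 were also opposed (-0.40 and -0.53), while Tmem233 went with Mmp25 (0.33 and 0.34). Dcn, a fibroblast marker, moved with Cartpt (0.39 and 0.29) and Scg2 (0.30 and 0.27) and against Tac1 (-0.28 and -0.37), S100a6 (-0.27 and -0.35) and Trpa1 (-0.31 and -0.41). The part of other cells in these correlations was not tested. The cells of a library share their library, and these values are descriptions of cells thinned to 1 depth, without a test.

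**Figure D4:**
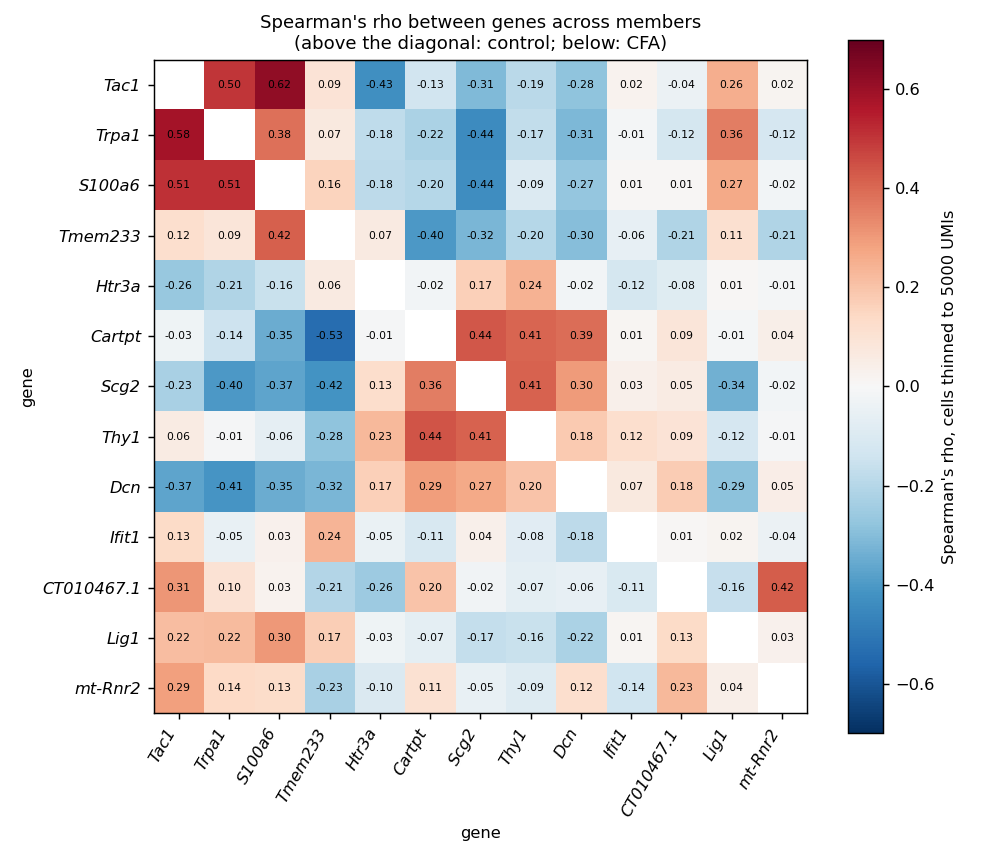
The colour gives Spearman's rho between pairs of genes over members thinned to 5000 UMIs, with control members above the diagonal and CFA members below it. Tac1, S100a6 and Trpa1 go together in both libraries (0.38 to 0.62), and Trpa1 and Scg2 are opposed (-0.44 and -0.40).

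Markers of other cells were present at low levels. Summed over a list of 4 fibroblast genes, members had 158 and 193 CPM against 45.1 and 44.1 CPM in non-peptidergic neurons, nearly all of it Dcn (146 and 187 CPM), with 30.9% and 53.6% of the list's UMIs in 5 cells. A list of 5 satellite glial genes was at 447 and 344 CPM in members against 308 and 247 CPM, led by Glul, and 5 myelinating Schwann cell genes were at 905 and 631 CPM against 1074 and 918 CPM, led by Pmp22 (566 and 474 CPM in members). Immune genes were at 12.8 and 4.42 CPM, with Cd3e at 0 in both libraries and C1qa at 0 in the CFA library. The part of these cells in the ratios was not tested.

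The comparison of the CFA library with the control library within members asked how these nociceptors differ 7 days into facial inflammation. A gene was compared with at least 100 UMIs in the members of both libraries together and counted past 1.5-fold. Of 8676 genes, 182 (2.1%) were higher in the CFA library and 343 (3.95%) were lower. Of 24 interferon response genes, 18 were lower in the CFA library. With 1 library per condition, all of this compares 2 libraries.

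Of 17 peptide genes, 1 was past 1.5-fold, a share close to that over all genes compared (2.1% higher and 3.95% lower), so the list showed nothing beyond the background. The log2 ratio of CFA over control in members was -0.34 for Tac1, -0.25 for Trpv1, -0.17 for Trpa1 and 0.26 for Htr3a. Nos1, at -0.55, was just inside 1.5-fold. Adcyap1 was at -0.00 and Cartpt at 0.14, and Pcsk1, a prohormone convertase, was the peptide gene past 1.5-fold (23.2 and 12.9 CPM). Calca was at -0.24, a value held by the rule, which asked for the same minimum in both libraries. Prokr2 was the marker with the largest ratio, at 22.5 CPM in control and 46.0 CPM in CFA members, a log2 ratio of 1.03 (exact 95% interval 0.67 to 1.39, counting error only). Of the CFA members' Prokr2 UMIs, 62.4% lay in 5 cells, and the log2 ratio was 0.49 in cells thinned to 5000 UMIs, 0.43 with Nefh below 150 CPM and -0.25 with Calca of at least 10000 CPM. Trpa1 and Htr3a also turned sign with that Calca limit, to 0.18 and -0.25.

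Genes were named here by the size of their ratio among those with at least 300 UMIs that were found in at least 25% of the members. The highest ratio was that of Lrrc17, a secreted leucine-rich repeat protein (chr5:21543527-21575911), at 35.4 CPM in control and 101 CPM in CFA members, with a log2 ratio of 1.51 (1.24 to 1.77). The median member had 26.8 CPM (control) and 91.5 CPM (CFA), and a UMI was found in 66.5% and 96.2% of members. The log2 ratio of Lrrc17 was 1.39 in Sstr2-positive and 1.48 in non-peptidergic neurons, so it was not particular to members. Likewise Bc1, a short noncoding RNA of dendrites and axons, was at 1180 and 2234 CPM in members (0.92), with 0.88 and 0.99 in those groups, and mt-Co1, a mitochondrially encoded subunit of cytochrome oxidase, at 1450 and 2843 CPM (0.97), with 0.80 and 1.07.

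Transcription factors and a potassium channel were among the higher genes. Pou4f3, a POU-domain factor of sensory neurons, was at 53.6 and 104 CPM, with a log2 ratio of 0.96 (0.72 to 1.19), against 0.47 in Sstr2-positive and -0.04 in non-peptidergic neurons. Ebf3, a helix-loop-helix factor, was at 41.9 and 79.6 CPM (0.93, 0.66 to 1.19), with 0.58 and 0.44 in the other groups. With Calca of at least 10000 CPM, these ratios were 0.23 for Pou4f3 and -0.14 for Ebf3, and that of Pou4f3 was 0.55 with Sstr2 read after thinning. Kcnk3 was at 75.2 and 137 CPM (0.87), with 0.57 and 1.25 in the other groups. Camk2d, a subunit of the calcium and calmodulin-dependent kinase, was at 235 and 420 CPM (0.84), with 0.45 and 0.27, and its median member went from 168 to 364 CPM. Chp2 (37.2 and 79.2 CPM), Trappc3l (42.7 and 82.9 CPM), a vesicle tethering protein, and the RNA-binding protein Hnrnpd (69.1 and 123 CPM) completed the set. Of the members' Chp2 UMIs, 51.6% (control) and 54.0% (CFA) lay in 5 cells, and the median member was at 0 in both libraries. The summed level of Chp2 was also higher in the CFA library in Sstr2-positive neurons. With Calca of at least 10000 CPM, Kcnk3 (0.52), Camk2d (0.51) and Trappc3l (0.54) were no longer past 1.5-fold either.

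Interferon response genes were the list with the most genes lower in the CFA library. Of 24 compared, 18 were past 1.5-fold lower and none higher, with a median log2 ratio of -0.93 in members, -0.56 in non-peptidergic neurons and -0.83 in Sstr2-positive neurons. Over all genes compared, the medians were -0.01, -0.00 and -0.01. The summed level of the list was 2383 and 1431 CPM in members, 1396 and 1018 CPM in non-peptidergic neurons and 2462 and 1833 CPM in Sstr2-positive neurons, so it was lower in all of these groups.

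Iigp1, a GTPase that attacks vacuoles of intracellular pathogens, was at 97.3 CPM in control and 14.7 CPM in CFA members, with a log2 ratio of -2.72 (-3.22 to -2.26). Of its UMIs, 55.4% in control and 72.5% in CFA members lay in 5 cells, and its ratio was -4.05 with Calca of at least 10000 CPM, -3.96 in neurons of at least 20000 UMIs and -1.94 with every cell weighted equally. Gbp2, a guanylate-binding protein induced by interferon, was at 100 and 21.0 CPM (-2.26), with -2.11 and -2.13 in Sstr2-positive and non-peptidergic neurons. Its UMIs were also unevenly spread, with 57.7% (control) and 49.1% (CFA) of them in 5 cells and a highest control member of 1888 CPM, and its ratio was -2.90 with Nefh below 150 CPM. Irgm1 was at 66.9 and 19.5 CPM (-1.78), Ifit3 at 45.7 and 16.9 CPM (-1.43) and Gbp3 at 45.5 and 19.2 CPM (-1.25). The ratio of Ifit3 was -3.13 with Calca of at least 10000 CPM and -0.92 in thinned cells, and that of Gbp3 was -2.11 with Nefh below 150 CPM. Among genes of antigen presentation, B2m was at 566 and 368 CPM (-0.62) and H2-K1 at 157 and 104 CPM (-0.60).

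The summed levels of markers of other cells did not move alike, although a sum can rest largely on 1 gene. In control and CFA members, 5 myelinating Schwann cell genes were at 905 and 631 CPM in sum, 5 satellite glial genes at 447 and 344 CPM, 4 non-myelinating Schwann cell genes at 1129 and 1121 CPM and 4 fibroblast genes at 158 and 193 CPM. Dcn alone was at 146 and 187 CPM, nearly all of the fibroblast sum. L1cam was the most abundant of the non-myelinating Schwann cell genes, at 698 and 597 CPM. The 5 immune genes were at 12.8 and 4.42 CPM, with Cd74 as the most abundant (9.01 and 2.21 CPM, or 54 and 6 UMIs), 4 oligodendrocyte genes at 157 and 108 CPM, 4 endothelial genes at 91.6 and 74.4 CPM and 4 erythroid genes at 16.9 and 29.8 CPM. The immune genes were thus lower along with the interferon response genes, and their part in that decrease was not tested. Apoe, a lipid carrier abundant in glia, was at 93.3 and 33.2 CPM (-1.49), with -0.56 and -1.09 in Sstr2-positive and non-peptidergic neurons, and Sparc, a matrix protein, was at 43.9 and 13.6 CPM (-1.69), with -0.83 and -0.77. These ratios moved both ways with the processing. That of Apoe was -0.69 with Sstr2 read after thinning to 5000 UMIs, -2.54 in thinned cells, and -2.40 both with every cell weighted equally and with Calca of at least 10000 CPM. That of Sparc was -0.93, -3.38, -2.62 and -2.23 under the same alternatives. The part of other cells in these ratios was not tested. Alkal2, a ligand of the receptor ALK, was at 95.4 and 33.9 CPM (-1.49), with -0.40 and -0.48 in Sstr2-positive and non-peptidergic neurons. Its ratio in members was -2.20 with Calca of at least 10000 CPM and -1.11 with Sstr2 read after thinning. mt-Nd6, a subunit of complex I encoded on the other strand of the mitochondrial genome, was at 76.4 and 31.3 CPM (-1.29), and at -0.27 in thinned cells.

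**Figure D5:**
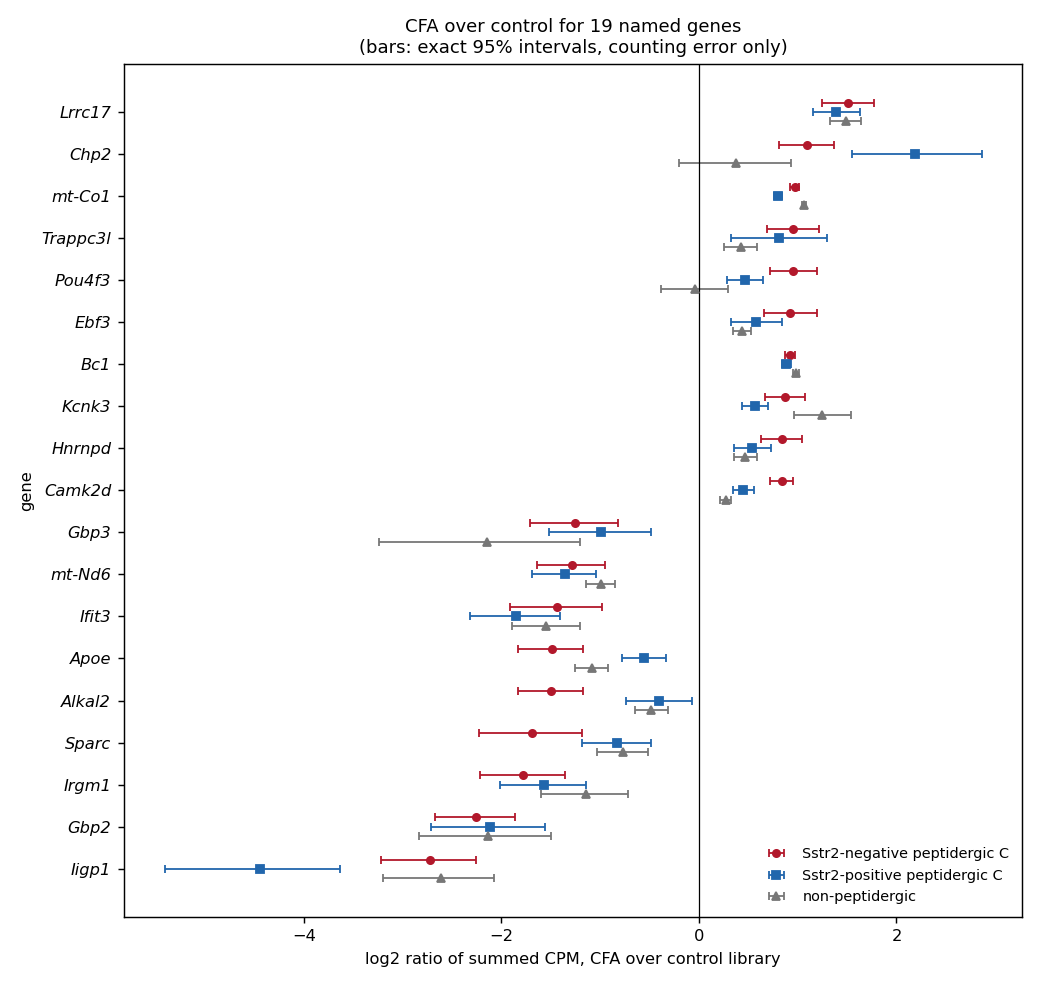
The x axis gives the log2 ratio of summed CPM in the CFA library over the control library for 19 named genes, with exact 95% intervals for counting error only, in Sstr2-negative, Sstr2-positive and non-peptidergic neurons. Lrrc17, Bc1 and mt-Co1 lie above 0 and Iigp1, Gbp2 and Irgm1 below 0 in all of these groups, whereas Pou4f3 lies above 0 in members (0.96) and near 0 in non-peptidergic neurons (-0.04).

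Several other lists held a larger share of genes past 1.5-fold than the 2.1% higher and 3.95% lower of all genes compared, though the number in each was small. Of 23 genes in the receptor list, Prokr2 and Cnr1, the cannabinoid receptor (28.4 and 47.2 CPM), were higher, and the bradykinin receptor Bdkrb2 (13.5 and 8.84 CPM) and the thrombin receptor F2r (22.5 and 13.6 CPM) were lower. Of 12 growth factor and cytokine receptors, Gfra1, Osmr (35.9 and 17.7 CPM) and Tnfrsf1a (22.4 and 14.7 CPM) were lower. Of 8 inflammatory genes, the chemokine Cxcl1 was higher (7.01 and 21.7 CPM, with -0.38 in non-peptidergic neurons) and Tnfaip3 lower. Of 14 mitochondrially encoded genes, mt-Co1 and mt-Atp8 were higher and mt-Nd6 and mt-Ts1 lower. Prkg2 and Camk2d were higher among 15 nitric oxide and second messenger genes, and Kcna4 and Kcnk3 among 18 potassium and HCN channels. Pou4f3 and Ebf3 were higher among 19 transcription factors, and Cacng2 was lower among 12 calcium channels. No gene of these last lists was past 1.5-fold the other way. None of 7 TRP channels, 10 sodium channels, 8 nerve injury genes, 10 immediate early genes, 14 heat shock chaperones, 83 respiratory chain genes or 76 ribosomal protein genes was past 1.5-fold. The 10 immediate early genes were nevertheless all on the higher side in CFA members, with a median log2 ratio of 0.24. Over all genes compared, 4176 of 8676 were on that side and the median was -0.01. The median of the 10 genes was also 0.24 in Sstr2-positive neurons and was 0.11 in non-peptidergic neurons, so a higher median was not particular to members. These differences were not tested. Fos, a marker of recent activity, was at 661 and 748 CPM, and Atf3 at 210 and 214 CPM.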

How the data were processed

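The deposited matrices give, for each cell and gene, a raw UMI count that the authors obtained with the BD Rhapsody workflow and did not normalize. The submitters' processing notes name fastp and GRCm38, and the aligner is not given in the sources used here. Neurons and members were chosen by the rule above. The members, gene lists and named genes were chosen with earlier results of these data known. UMIs were summed per group and library and divided by the group's total (CPM). Levels have exact Poisson, shares Clopper-Pearson and ratios conditional binomial 95% intervals. UMIs are counted molecules, and intervals cover counting error only. Genes were named by the smaller of both libraries' ratios, or, between libraries, by the ratio itself. Doublets were scored with Scrublet (expected rate 0.05) and not removed. Alternatives changed the rule, depth, gene minimum and scaling (edgeR 4.0.16 TMM, median of ratios). The ratio code was tested on simulated data. Python 3.11.15, numpy 2.4.6, scipy 1.17.1, pandas 2.3.3, scanpy 1.11.5 and R 4.3.3 were used. Coordinates came from RefSeq on GRCm38.p6, which matched 30238 of 39098 symbols. Some genes, and 1 alternative added after seeing the data that rests on such a gene, are not reported here.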

Additional observations from a re-analysis of the deposited data

Results flagged for a closer look

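Of 26 named genes examined, 2 were flagged because their ratios of CFA over control had opposite signs in members and in non-peptidergic neurons. For these genes neither interval spanned a ratio of no change, and the difference was not tested. Signs also differed for genes that were not flagged, such as Pou4f3, whose ratio in non-peptidergic neurons was near no change. The log2 ratio of CFA over control for Trpv1 was -0.25 (-0.34 to -0.16, counting error only) in members and 0.25 (0.13 to 0.37) in non-peptidergic neurons. That for Prokr2 was 1.03 (0.67 to 1.39) in members and -1.32 (-2.72 to -0.15) in non-peptidergic neurons, where its level was 1.86 and 0.743 CPM. There, 81.0% (control) and 100% (CFA) of the Prokr2 UMIs lay in 5 cells or fewer, with a highest neuron of 250.3 and 181 CPM, so that this ratio rests on few cells.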

How the results depend on the processing

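The number of members was 155 (control) and 78 (CFA). It was 131 and 60 with neurons of at least 20000 UMIs, 119 and 42 with Calca of at least 10000 CPM, 100 and 52 with Nefh below 150 CPM, and 255 and 117 with Sstr2 read after thinning to 5000 UMIs. Genes higher and lower than in non-peptidergic neurons numbered 788 and 980 with a minimum of 20 UMIs and 139 and 265 with a minimum of 500 UMIs. Genes higher and lower than in Sstr2-positive neurons numbered 160 and 108 with 20 UMIs, 11 and 5 with 500 UMIs, 13 and 2 with Calca of at least 10000 CPM and 34 and 28 with Nefh below 150 CPM, and the lower ones 19 with Sstr2 read after thinning. Genes higher and lower in the CFA library numbered 696 and 1077 with 20 UMIs, 36 and 46 with 500 UMIs and 908 and 1279 in cells thinned to 5000 UMIs. With Calca of at least 10000 CPM, the CFA ratio turned to -0.14 for Ebf3 and -0.25 for Prokr2. The other counts stayed within 1.5 times (77 of 104 values), but not always with the same genes: of the 182 genes higher in the CFA library, 72 remained with Calca of at least 10000 CPM, 78 with Nefh below 150 CPM and 91 with Sstr2 read after thinning, and of the 343 lower ones 181, 167 and 206. Scaling moved the median of all genes by less than 0.1 on the log2 scale. For single genes, 1427 values moved by less than their interval and 276 by more, some of them with a change of sign where the ratio was not past the fold, and the sign turned for 2 ratios that were past it. No paired analysis was possible because each condition has 1 library. Depth limits calls of Sstr2 UMIs and of genes near 0.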
